A study of Homo sapiens with 12 samples.

Results

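The 40 genes described here encode receptor tyrosine kinases outside the ERBB and insulin receptor families. They were chosen by name from a fixed list, and all 40 were found among the 56269 rows of the count table. The cells were HCC1954, an established line from a human breast carcinoma in which the ERBB2 gene, coding for HER2, is amplified. All were grown in serum-containing medium. According to the labels there were 12 cultures in 4 groups of 3 biological replicates, each exposed for 24 hours to the vehicle DMSO, to SNXB at 1 µM, to lapatinib at 1 µM, or to a combination whose doses are not given. Lapatinib blocks the kinases of ERBB2 and EGFR. What SNXB acts on is not given in the sources used here.

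Count columns are named S13 to S24 and match no label. No library was therefore assigned to a treatment, no treatments were compared and no test was made. Each value below belongs to a library whose treatment is not known, so the spread across the 12 libraries mixes treatment, culture and counting error. Treatment and culture cannot be told apart. Counting error alone is covered by the intervals given below. The lowest, median and highest of the 12 libraries are given in place of a mean and SD.

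A receptor tyrosine kinase spans the cell membrane, binds a ligand outside the cell and phosphorylates itself and its partners inside it. Many of these receptors recruit the same adaptors as the ERBB family and feed the same ERK and PI3K pathways. In ERBB2-amplified breast cancer, MET, AXL, FGF receptors and EPHA2 are known as receptors that can keep these pathways active while ERBB2 is inhibited, which is called bypass signalling. Other receptors of the list are best known from other cells: the VEGF and TIE receptors from endothelium, KIT, FLT3 and CSF1R from blood cells, the PDGF receptors and DDR2 from fibroblasts and vessel walls, and RET, the neurotrophin receptors and ALK from neurons.

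Levels were expressed as counts scaled to the library's total (CPM), for comparing libraries, and as TPM, which also divides by exonic length, for comparing genes. Library totals ran from 9289353 to 12219397 counts. S21, S22, S23 and S24 had 20720 to 21295 rows with at least 1 count, and the other 8 libraries had 22890 to 24681. TMM scaling, which sets the bulk of genes level between libraries, would raise S21 by 0.15 and S22 by 0.14 on the log2 scale, S23 by 0.07 and S24 by 0.06. It would lower the other 8 by 0.03 to 0.08. All 10 epithelial markers, among them KRT8, KRT18, CDH1 and EPCAM, had at least 1 CPM in every library. None of the 12 blood cell markers did, and LYZ, TYROBP and MS4A1 were at 0 in all 12 libraries.

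The promoters of 5 receptors are shown to set expressed members beside members with almost no counts. For each, the 250 bases before the RefSeq start site are printed 5′ to 3′ on the gene's strand, with every CG dinucleotide in capitals. The RefSeq start is not always that of the counted row. The window ended 194 bases before the counted row of MET and directly before that of FLT1. It reached 39 bases into the row of KIT, 20 into that of AXL and 18 into that of EPHA2. Unmethylated CG-rich promoters are typical of widely active genes. MET, EPHA2 and AXL were expressed in all 12 libraries, while KIT had 1 count in all libraries together and FLT1 had none. These 5 were chosen after their levels were seen.
MET, chr7:116671946-116672195 (GRCh38.p14, plus strand): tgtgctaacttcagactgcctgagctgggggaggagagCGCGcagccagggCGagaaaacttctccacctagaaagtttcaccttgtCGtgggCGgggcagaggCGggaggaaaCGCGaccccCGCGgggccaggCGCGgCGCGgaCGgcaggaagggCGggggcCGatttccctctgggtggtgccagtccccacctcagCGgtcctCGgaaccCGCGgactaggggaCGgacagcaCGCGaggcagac
EPHA2, chr1:16156070-16156319 (minus strand): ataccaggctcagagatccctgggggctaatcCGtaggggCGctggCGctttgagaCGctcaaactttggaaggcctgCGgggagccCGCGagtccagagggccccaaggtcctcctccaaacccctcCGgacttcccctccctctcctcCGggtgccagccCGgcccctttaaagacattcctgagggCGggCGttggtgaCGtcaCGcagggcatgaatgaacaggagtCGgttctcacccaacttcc
AXL, chr19:41218973-41219222 (plus strand): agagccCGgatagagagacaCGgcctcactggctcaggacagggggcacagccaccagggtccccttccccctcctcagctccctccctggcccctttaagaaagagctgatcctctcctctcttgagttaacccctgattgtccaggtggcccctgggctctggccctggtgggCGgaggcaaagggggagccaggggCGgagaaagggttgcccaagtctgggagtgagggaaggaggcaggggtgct
KIT, chr4:54657707-54657956 (plus strand): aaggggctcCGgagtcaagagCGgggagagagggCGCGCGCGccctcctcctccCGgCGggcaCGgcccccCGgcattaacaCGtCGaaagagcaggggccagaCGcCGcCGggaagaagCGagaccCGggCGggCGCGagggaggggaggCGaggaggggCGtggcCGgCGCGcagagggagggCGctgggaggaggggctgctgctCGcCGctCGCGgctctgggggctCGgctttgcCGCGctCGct
FLT1, chr13:28495129-28495378 (minus strand): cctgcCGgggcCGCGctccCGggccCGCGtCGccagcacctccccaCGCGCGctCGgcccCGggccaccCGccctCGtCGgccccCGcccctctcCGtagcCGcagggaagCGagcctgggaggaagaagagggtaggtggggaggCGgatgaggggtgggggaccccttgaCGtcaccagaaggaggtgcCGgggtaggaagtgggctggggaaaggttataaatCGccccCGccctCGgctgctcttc

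The window held 24 CG dinucleotides in MET, 15 in EPHA2, 4 in AXL, 34 in KIT and 25 in FLT1. The unexpressed KIT thus had the most of the 5 and the expressed AXL the fewest. A RefSeq window was found for 38 of the 40 receptors, not for FGFR1 and FLT4. The first listed start was taken where a gene had several. Over the 19 expressed receptors with a window, the number of CG dinucleotides ranged from 3 (EPHB6) to 42 (FGFR2 and EPHB2), with a median of 24. Over the 15 receptors classed as intermediate, neither expressed nor silent, the range was 0 (DDR2) to 34 (KIT) with a median of 15. Over the 4 silent ones it was 8 to 25 with a median of 21. Beside them, the median was 21 over the promoters of 8829 expressed rows and 4 over those of 3188 silent rows. The intermediate receptors included KIT, FLT3, PDGFRB, TEK, TIE1, ROR2 and ALK, which never had more than 3 counts in a library. In level these were hardly apart from the silent ones. The 3 receptor groups overlapped in this measure of CG dinucleotides, and no sequence feature was tested against expression.

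Of the 40 receptors, 20 (50.0%) were expressed, meaning at least 1 CPM in every library. By the same rule, 56.9% of 18816 protein-coding genes, matched by name, were expressed. Another 4 receptors (10.0%) were silent, meaning under 0.1 CPM in every library, beside 17.5% of protein-coding genes, and 16 lay between. Because 1 count is worth more than 0.1 CPM in the smaller libraries, a limit of at most 3 counts in every library was added after the values were seen. It held for 12 receptors (30.0%), beside 26.7% of protein-coding genes. Whole families fell on either side. Both MET family receptors, all 3 TAM receptors and all 4 FGF receptors were expressed, as were 7 of the 10 EPH receptors and 3 of the 4 Wnt-binding receptors. None of the 5 PDGF-class, 3 VEGF, 2 TIE and 5 neural and other receptors was.

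MET, the receptor of hepatocyte growth factor, had the highest TPM of the 40 in each of the 12 libraries, with 274 at its lowest, 348 at the median and 488 at its highest. Its median lay at percentile 96.4 of the 12303 expressed rows. Its lowest library was above the highest library of every other receptor. DDR1, a collagen receptor of epithelial cells, came next with a median of 133 TPM, followed by EPHB4, an ephrin-B2 receptor, with 130.2 and PTK7, a kinase-dead co-receptor in Wnt signalling, with 120.2. Then came EPHA2 with 98.8 and FGFR4 with 88.5. The order of these 5 was not fixed: DDR1 exceeded EPHB4 in 8 libraries, EPHB4 exceeded PTK7 in 7, PTK7 exceeded EPHA2 in 8 and EPHA2 exceeded FGFR4 in 6.

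**Figure D1:**
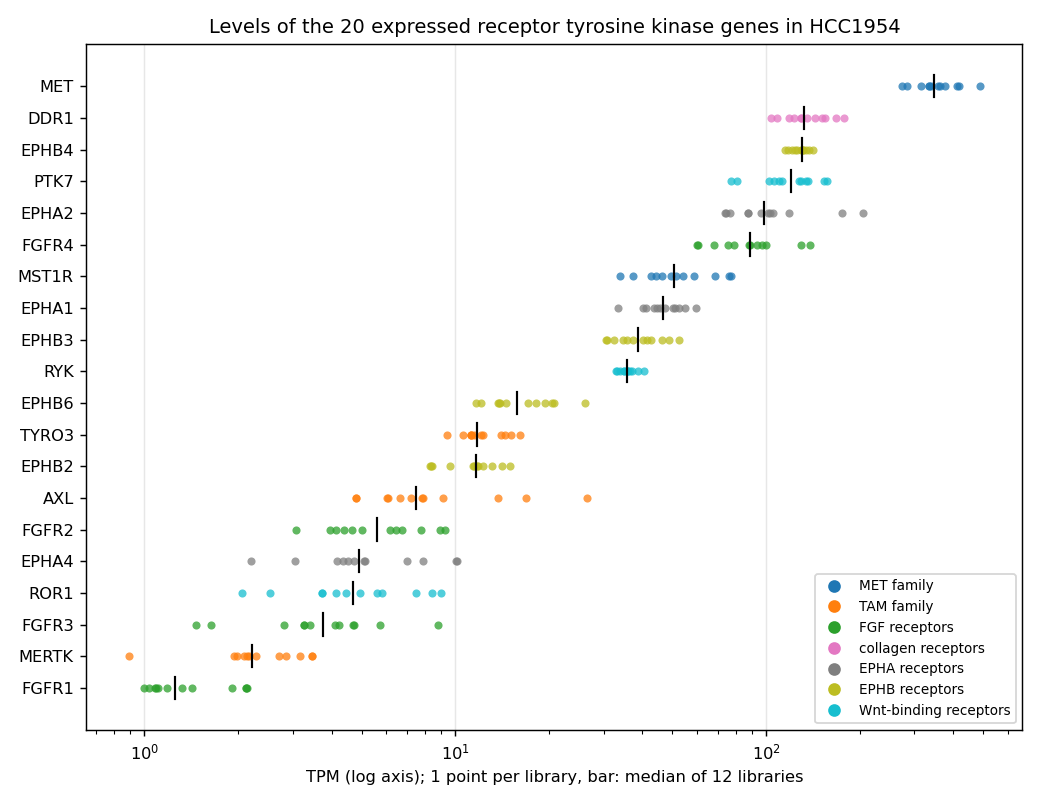
TPM (log axis) of the 20 expressed receptors in each of the 12 libraries, with 1 point per library, colour for the family and a bar at the median. MET stands apart from the rest with 274 to 488 TPM, and a second gap separates RYK from EPHB6.

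Below them lay MST1R, the MET relative that binds macrophage-stimulating protein, with a median of 50.5 TPM, EPHA1 with 46.5, EPHB3 with 38.8 and RYK, a Wnt-binding pseudokinase, with 35.7. MST1R exceeded EPHA1 in 7 of 12 libraries, EPHA1 exceeded EPHB3 in 7 and EPHB3 exceeded RYK in 7, so their order was not stable either. RYK exceeded the next gene, EPHB6, in all 12 libraries with no overlap of their ranges. The lower part of the list held EPHB6 with 15.8, TYRO3 with 11.8, EPHB2 with 11.6 and AXL with 7.5 TPM. FGFR2 (5.59), EPHA4 (4.91), ROR1 (4.70), FGFR3 (3.75), MERTK (2.23) and FGFR1 (1.25) closed it. Each of these overlapped its neighbour in range, as did FGFR4 and MST1R, although FGFR4 was the higher in all 12 libraries. The median over the 20 expressed receptors was 25.8 TPM and that over all expressed rows was 28.8 TPM. TPM uses all annotated exons, so a gene with long exons that these cells do not use would be understated; whether this holds for EPHB2, with 12516 exonic bases, was not tested.

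ERBB2, the amplified receptor of this line, had more TPM than all 40 of these receptors summed in each library. It ranged from 1490 TPM in S22 to 3773 in S19, against a sum of 1097 to 1360 TPM for the 40. The ratio of ERBB2 to that sum was lowest in S22 at 1.10 and highest in S19 at 3.34. Against MET alone, ERBB2 was 13.3 times as high in S19 and 3.06 times as high in S22. S22 held both the lowest ERBB2 and the highest MET of the 12 libraries. Of the other ERBB and insulin family receptors, the median was 93.1 TPM for EGFR, 54.04 for ERBB3, 20.9 for IGF1R and 10.7 for INSR. The summed CPM of the 40 receptors varied little, from 1850 to 2231, a ratio of 1.21.

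**Figure D2:**
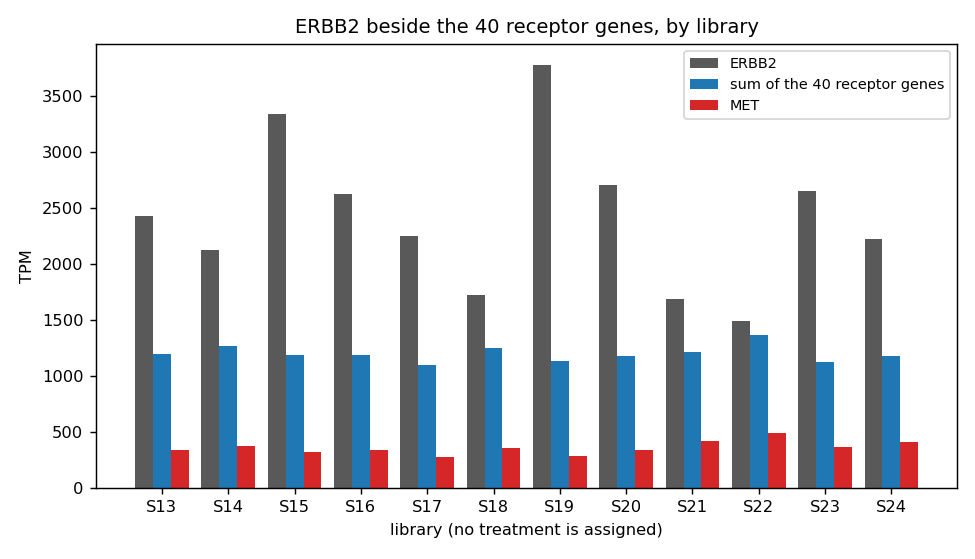
TPM of ERBB2, of the 40 receptors summed and of MET in each library, as bars from 0. ERBB2 is above the sum in every library, by the least in S22 (1490 against 1360 TPM) and by the most in S19 (3773 against 1129 TPM).

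Across libraries, 11 of the 20 expressed receptors (55.0%) had a highest CPM at least 2 times the lowest, beside 40.2% of all expressed rows. Low genes vary more by this measure, so the share was also taken by level. With a median of at least 10 CPM, 5 of 14 receptors (35.7%) reached 2-fold, beside 29.5% of expressed rows at that level. Under 10 CPM, 6 of 6 did, beside 77.5%. The share among the higher receptors was near the background, and the lower group holds only 6 genes. Exact binomial 95% intervals (Clopper-Pearson) of the lowest and highest library were apart for 20 of 20 receptors and for 95.8% of all expressed rows, so this separates no receptor from other genes. These intervals cover counting error only and do not allow for the choice of the extreme libraries.

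**Figure D3:**
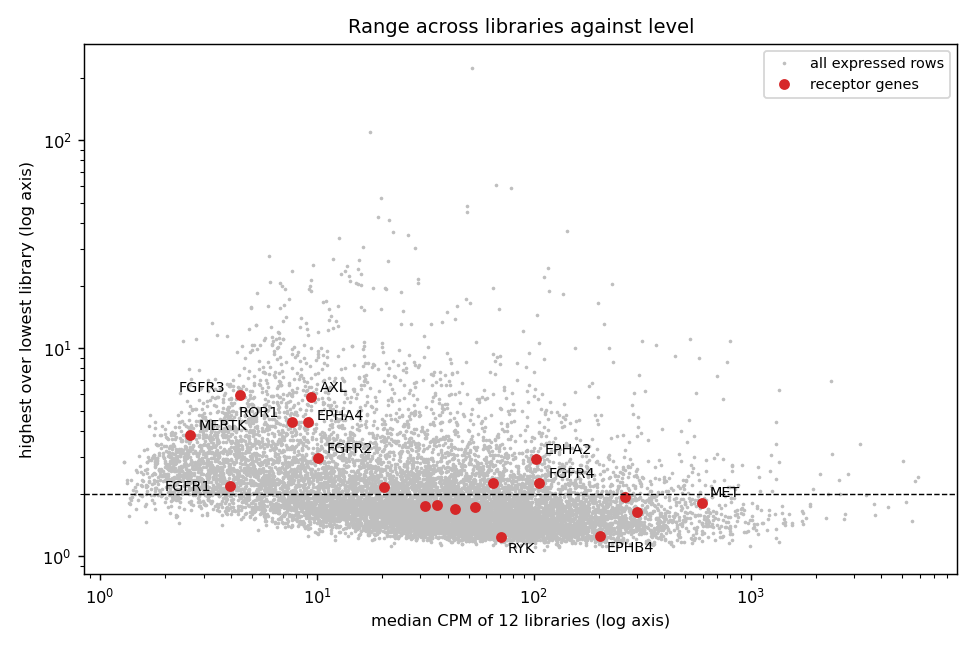
Highest over lowest library (log axis) against median CPM (log axis) for all 12303 expressed rows (grey) and the 20 expressed receptors (red), with a dashed line at 2-fold. AXL and FGFR3 are the widest receptors at 5.80 and 5.94, and RYK and EPHB4 lie near the lower edge at 1.24 and 1.25.

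In the MET family, MET was at 567, 648, 529.8, 585, 478, 610.2, 478, 573, 737, 863, 634 and 716 CPM in S13 to S24 in that order. It was highest in S22, S21 and S24 and lowest in S17 and S19, with 1.81-fold between the extremes. MST1R, its relative, was at 95.5, 98.6, 62.03, 60.2, 76.2, 87.3, 55.8, 53.8, 67.7, 71.5, 48.5 and 43.9 CPM in the same order. MST1R was highest in S14 and S13 and lowest in S24 and S23, a range of 2.24-fold (1.83-fold without S21, S22, S23 and S24), so the highest and lowest libraries of the 2 genes were not the same ones. With TMM scaling, the range of MET was 2.10-fold with S19 as its lowest library, which put it past 2-fold, and that of MST1R was 2.11. The ligand of MET, HGF, had 0 counts in all 12 libraries. A low level is not excluded, since 3 counts equal 0.323 CPM in the smallest library. MST1, the ligand of MST1R, ranged from 0.260 to 4.20 CPM. Of the proteases that activate HGF, ST14 (matriptase) was expressed at a median of 296 TPM, and its inhibitors SPINT1 and SPINT2 at 519 and 478 TPM. HGFAC and HPN were not expressed by the rule.

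Of the TAM receptors, which bind GAS6 and PROS1, AXL had the widest range. It was at 11.3, 9.80, 7.42, 7.78, 8.46, 8.998, 5.91, 5.92, 34.3, 21.9, 17.5 and 10.01 CPM in S13 to S24. S21, S22 and S23 were the 3 highest libraries, and S19 and S20 the lowest. The range was 5.80-fold (counting interval 4.46 to 7.65, taking S19 and S21 as if fixed beforehand), 3.70-fold without S21 and 1.91-fold without S21, S22, S23 and S24. With TMM scaling it was 6.80-fold. TYRO3, a TAM receptor with the steadiest level of the 3, ran from 24.6 CPM in S15 to 42.7 in S18, with a median of 31.4. Its pseudogene TYRO3P had at most 4 counts in any library. MERTK, known for clearing dying cells, was low at 2.19, 3.97, 2.39, 2.54, 2.65, 3.93, 3.05, 3.23, 3.73, 2.35, 1.04 and 2.42 CPM. It was lowest in S23 with 12 counts, and its 3.82-fold range was 1.81-fold without that library. GAS6 was expressed at a median of 22.4 TPM with a 1.55-fold range, and PROS1 was not expressed by the rule (0.181 to 1.995 CPM).

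All 4 FGF receptors were expressed. Each had a range of at least 2-fold, beside 40.2% of all expressed rows. The share was 77.5% for rows under 10 CPM, where FGFR1 and FGFR3 lie. It was 29.5% for rows of at least 10 CPM, where FGFR4 lies and FGFR2 just falls with a median of 10.1 CPM. FGFR4, the highest of them and a receptor of FGF19, was at 108, 153, 77.9, 106, 106, 163, 87.3, 116, 72.4, 118, 72.3 and 94.1 CPM in S13 to S24. It was highest in S18 and S14 and lowest in S23 and S21, with 2.25-fold between them. FGFR2, whose epithelial form binds FGF7 and FGF10, was at 9.03, 7.24, 16.5, 11.9, 7.65, 5.58, 16.04, 11.1, 8.26, 8.77, 14.4 and 12.4 CPM. S15, S19 and S23 were its highest libraries and S18 and S14 its lowest, the libraries in which FGFR4 was highest, with a range of 2.96-fold. FGFR3 was at 3.80, 5.56, 4.86, 10.6, 4.08, 5.48, 4.75, 6.67, 1.78, 1.99, 3.38 and 3.90 CPM. S16 stood above the other libraries and S21 and S22 below them. Its range was 5.94-fold, from 20 counts in S21 to 129 in S16, 3.76-fold without S16 and 2.78-fold without S21, S22, S23 and S24. FGFR1 was the lowest expressed receptor of the 40 by TPM, at 3.04, 6.62, 3.27, 4.17, 4.49, 6.52, 3.14, 6.46, 3.46, 3.53, 3.73 and 6.005 CPM. S14, S18, S20 and S24 lay at 6.01 to 6.62 CPM, and the other 8 libraries at 3.04 to 4.49 CPM. None of the 18 listed FGF genes was expressed by the rule, and 7 were silent. FGF19 ranged from 0 to 1.15 CPM and KLB, the co-receptor that FGF19 uses with FGFR4, from 0 to 0.931. FGFRL1, an FGF receptor that lacks a kinase, was expressed at a median of 28.3 TPM.

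Among the 5 EPHA receptors, EPHA2, a receptor of epithelial cells often raised in carcinomas, had the highest level. It was at 87.1, 104, 75.9, 90.3, 104, 119, 73.3, 74.2, 183, 215, 99.6 and 108 CPM in S13 to S24. S22 and S21 stood above the other 10 libraries, which lay between 73.3 CPM in S19 and 119.4 CPM in S18. The range was 2.94-fold, 3.41-fold with TMM scaling, 2.50-fold without S22 and 1.63-fold without S21, S22, S23 and S24. EPHA4 was at 9.29, 8.03, 18.03, 13.1, 8.46, 9.31, 14.2, 18.4, 4.18, 5.79, 7.80 and 8.85 CPM. It went the other way in S21 and S22, its 2 lowest libraries, and was highest in S20 and S15, with a range of 4.41-fold, 2.29-fold without S21, S22, S23 and S24. EPHA1 was at 50.8, 68.8, 51.3, 64.4, 48.2, 58.2, 56.7, 59.8, 39.6, 51.7, 47.3 and 55.4 CPM, highest in S14 and lowest in S21, a range of 1.74-fold. EPHA3 had 0 to 8 counts per library, and EPHA7 had 1 count in 1 library. The ephrin-A ligands are anchored to the membrane of neighbouring cells, and 4 of the 5 were expressed. EFNA1 led them with a median of 119 TPM. With scaling to library totals its lowest library was S22, the highest for EPHA2, at 42.1 CPM beside 44.2 in S18. TMM scaling, which raises S22 by 0.14 and lowers S18 by 0.04 on the log2 scale, puts S18 lowest. S22 was the lowest library for 2319 of the 12303 expressed rows. EFNA4 had 58.7 TPM, EFNA5 had 32.1 and EFNA3 had 6.33.

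The EPHB receptors bind ephrin-B ligands. EPHB4 was at 195, 189.9, 190.5, 183, 218, 204, 202, 201, 229, 217, 209 and 188 CPM, with 1.25-fold between S16 and S21 (1.45-fold with TMM scaling). EPHB3 was at 50.4, 41.3, 56.5, 45.2, 46.4, 35.6, 52.7, 33.3, 39.4, 35, 47.96 and 40.1 CPM, highest in S15 and S19 and lowest in S20, a range of 1.70-fold. EPHB2 ran from 25.6 to 44.98 CPM (median 35.6). EPHB6, a pseudokinase of the family, was the only one past 2-fold, at 17.8, 26.9, 17.6, 27.01, 18.04, 22.1, 18.6, 33.4, 15.6, 25.96, 16.04 and 24.02 CPM. It was highest in S20, and its 2.15-fold range was 1.74-fold without that library, 1.90-fold without S21, S22, S23 and S24 and 1.89-fold with TMM scaling. EPHB1 stayed under the expression limit in 5 libraries, with 3 to 19 counts. Of the ligands, EFNB2, the partner of EPHB4, was expressed at a median of 25.1 TPM with its highest library in S22. EFNB1 had 15.3 TPM, and EFNB3 ranged from 0.444 to 7.12 CPM.

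DDR1 and DDR2 bind collagen. DDR1 was at 332, 288, 386, 379, 267, 272, 337, 314, 248, 238, 307 and 293 CPM in S13 to S24. It was highest in S15 and S16 and lowest in S22 and S21, by 1.62-fold, and by 1.41-fold with S17 as the lowest library under TMM scaling. DDR2, the form of mesenchymal cells, had 2 to 8 counts in each library. Among the listed collagens, COL5A1 had the highest median at 23.7 TPM and a range of 6.06-fold, lowest in S22. COL1A1 had 4.26 TPM, COL4A2 had 1.56, and COL3A1 had no count.

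Of the receptors that bind Wnt ligands or act with them, PTK7 was at 281, 247, 338, 305, 286, 240.5, 332, 292, 175, 183, 237 and 228 CPM. S15 and S19 were highest, and S21 and S22 lowest, by 1.94-fold. ROR1, a receptor of WNT5A and a pseudokinase, was at 7.17, 12.3, 4.07, 3.44, 9.69, 9.10, 6.004, 6.03, 14.2, 15.2, 8.24 and 6.85 CPM. It was highest in S22 and S21 and lowest in S16 and S15, the reverse of the extremes of PTK7 in S15, S21 and S22, with a range of 4.42-fold. That range was 3.57-fold without S21, S22, S23 and S24. RYK had the smallest range of the 20 with scaling to library totals, at 67.4, 70.2, 70.2, 65.9, 67.4, 79.1, 64.1, 68.9, 70.4, 78.1, 71.8 and 73.7 CPM, with 1.24-fold between S19 and S18. With TMM scaling its range was 1.416-fold, beside 1.414-fold for DDR1. ROR2 had 2 counts in all libraries together. WNT5A was expressed at a median of 8.08 TPM. With scaling to library totals it was lowest in S22, the highest library for ROR1, at 8.05 CPM beside 8.09 in S21 and 9.07 in S17. With TMM scaling S17 was the lowest. S22 was the lowest library for 2319 of the 12303 expressed rows.

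**Figure D4:**
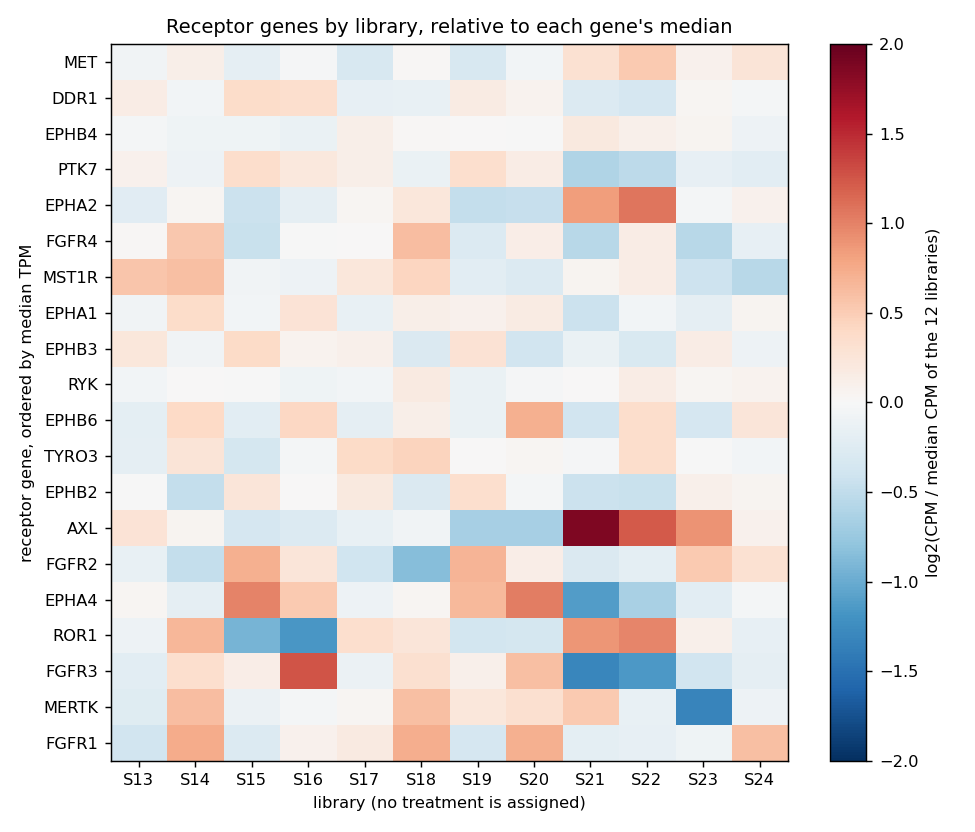
Each of the 20 expressed receptors (rows, by median TPM) in each library (columns), as the log2 ratio of its CPM to its own median over the 12 libraries. S21 and S22 are red for MET, EPHA2, AXL and ROR1 and blue for DDR1, PTK7, EPHA4 and FGFR3.

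In S21 and S22, MET, EPHA2, AXL and ROR1 thus had their 2 highest values, and PTK7, DDR1, EPHA4 and FGFR3 their 2 lowest. For AXL, ROR1, EPHA2 and MET the highest library stayed the same under TMM scaling and DESeq2 size factors, as did the lowest for PTK7, EPHA4 and FGFR3, while the lowest of DDR1 moved to S17 under TMM. Over all 20, S21 was the highest or lowest library for 7, beside 24.2% of all expressed rows, and S22 for 4, beside 31.0%. Both libraries were often extreme for genes in general, and the receptors' counts lay on both sides of the background. S23 and S24, which had similarly few rows with a count, did not share all of these patterns: DDR1 was at 307 and 293 CPM there, beside a median of 300.2, and ROR1 at 8.24 and 6.85 CPM, beside a median of 7.71. AXL in S23 and MET in S24 were the third highest of the 12. PTK7 in S24 and FGFR3 and EPHA4 in S23 were the third lowest.

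The 20 receptors under the expression limit are mostly those of other cell types, and 12 of them never had more than 3 counts in a library, 38 counts in all. FLT1 and NTRK3 had no count in any library. PDGFRA had 3 counts in all, PDGFRB had 4, KIT, FLT3 and EPHA7 had 1 each, TEK and ROR2 had 2 each, TIE1 had 5, ALK had 6 and FLT4 had 13. A count of 0 in a library allows a level of up to 0.246 CPM in the largest and 0.323 CPM in the smallest library (3 counts). CSF1R, the receptor of CSF1 and IL34 on macrophages, was above these with 18, 16, 22, 13, 23, 11, 32, 6, 15, 3, 14 and 8 counts in S13 to S24. S19 was its highest library and S22 its lowest. KDR, the main VEGF receptor of endothelium, had 12, 19, 14, 24, 8, 23, 14, 23, 20, 51, 7 and 26 counts, with its highest library in S22 and its lowest in S23. NTRK2, the BDNF receptor, had 23, 22, 16, 27, 14, 22, 13, 20, 11, 36, 19 and 25 counts and missed the limit of 1 CPM in S21 alone. RET had 0 to 7 counts, LTK 0 to 9.

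For several of these receptors the ligand's mRNA was present. KITLG, the ligand of KIT, was expressed at a median of 90.2 TPM, VEGFB at 79.3, CSF1 at 45.8, VEGFA at 31.8, PDGFB at 29.9, VEGFC at 15.1, PDGFC at 15 and PDGFA at 7.67. In the PDGF receptor class, 0 of 5 receptors and 5 of 8 ligands were expressed, and in the VEGF family 0 of 3 receptors and 3 of the 5 ligands found by name. The MET and FGF families were the reverse, with 6 of 6 receptors and 0 of 20 ligands. Both sides were expressed for the EPH receptors, 7 of 10 with 6 of 8 ephrins. By the same rule, 56.9% of protein-coding genes were expressed. These family counts rest on the rule of 1 CPM in every library. MST1 missed it with a median of 1.61 CPM, and KDR and CSF1R would count as expressed where 3 libraries are enough. Among neural ligands, NRTN, a RET ligand, NTF4 and BDNF were expressed, at medians of 12.7, 12.4 and 0.856 TPM. NRP1, which binds VEGF beside KDR, had 61.4 TPM.

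**Figure D5:**
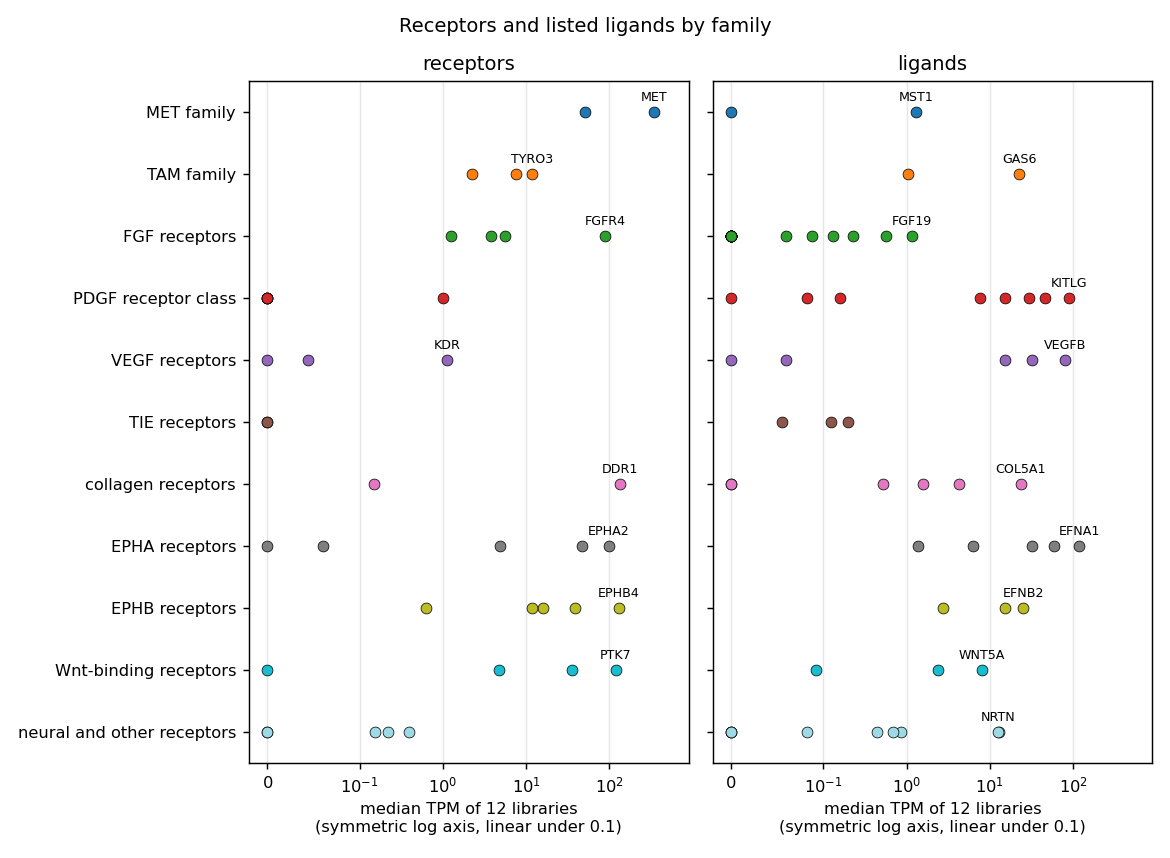
Median TPM of the receptors (left) and their listed ligands (right) by family, on an axis that is linear under 0.1 TPM and logarithmic above it, with the highest gene of a family named where it exceeds 1 TPM. MET is at 348 TPM with HGF at 0, while KITLG is at 90.2 TPM with KIT at 0.

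Markers of the cells in which these receptors normally work were mostly low, with exceptions. Of the 8 endothelial markers, PECAM1, CDH5 and VWF were expressed at medians of 28.8, 10.7 and 2.11 TPM. CDH5 was at 43.8, 38.3, 53.9 and 55.55 CPM in S17 to S20 and at most 16.9 CPM in the other libraries. ESAM had counts in every library and narrowly missed the limit (0.969 to 2.11 CPM), and CLDN5 lay at 0 to 0.530 CPM. EMCN was at 0 in every library and ERG and ROBO4 were at 0 in most. The summed level of the 8 ranged from 48.8 to 143 CPM. Of the 12 fibroblast and mural markers, TAGLN, COL1A1, RGS5 and FAP were expressed. ACTA2 (0.506 to 27.99 CPM) and CSPG4 (0.173 to 4.26 CPM) were under the limit in some libraries only, and COL1A2 lay at 0 to 0.2455 CPM. DCN, LUM, THY1 and COL3A1 were at 0 in every library and PDGFRB, itself one of the 40 receptors, had 4 counts in all. The summed level of the 12 was 45.3 to 117 CPM. Of the 8 neural markers, MAP2 and TUBB3 were expressed, and SOX10, S100B and ELAVL4 were at 0. The 12 blood cell markers summed to 0.173 to 1.24 CPM. The part of any of these marker levels in the receptors' values was not tested.

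Most genes of the signalling machinery that these receptors share were expressed. Of the 24 adaptors and shared signalling genes, 20 were expressed, led by CRKL (206 TPM), PTPN11 (149), GRB2 (139) and CRK (113), and 10 of the 20 had a range of at least 2-fold. All 19 genes of receptor downregulation were expressed and 11 of them reached 2-fold. Over all features, 56.9% of protein-coding genes were expressed and 40.2% of expressed rows reached 2-fold. The downregulation genes were led in level by ERRFI1, an inhibitor of ERBB kinases, with 317 TPM and a 6.21-fold range. PTPRF had 236 TPM, PTPN12 had 118 and PTPN1 had 101. ADAM10, a protease that sheds the outer part of MET, AXL and ephrins, had 114 TPM. Of the 14 co-receptors, 8 were expressed, led by SDC1 (545 TPM), SDC4 (331), CD44 (194), which includes forms that present HGF to MET, and PLXNB2 (165).

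The rows count each receptor over its exons on GRCh38. In these coordinates MET spans chr7:116672390-116798386 and AXL chr19:41219203-41261766, both plus strand, and EPHA2 spans chr1:16124337-16156087, minus strand. Of the 40 receptors, 31 shared no exonic base with another row, MET, EPHA2, DDR1 and PTK7 among them. The silent PDGFRA was the only one over 10%, with 15.8%. Of the expressed members, MST1R shared most with 6.78%, mainly with a row at a median of 0 CPM on the opposite strand. EPHA1 shared 82 bases with ZYX on the opposite strand, a row at 344 CPM, and EPHB4 shared 69 with SLC12A9, and fragments on those bases cannot be told apart because strand was not used in counting.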

How the data were processed

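RNA from 12 HCC1954 cultures was sequenced from directional libraries, per the labels' protocols. The authors deposited whole-number fragment counts per gene name, made with featureCounts against GENCODE 25 in paired-end mode with no strand or multi-mapping option, per the file headers. FastQC 0.11.5, Trim Galore 0.4.5, STAR 2.4, SAMtools 1.2, Subread 1.4.6 and GRCh38 are named in the submitters' processing notes. The other annotation column used, a length in exonic bases, was also deposited by the authors.

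CPM used the column totals, and TPM the deposited length. The 37 mitochondrial rows held 0 counts. A fold range is the highest over the lowest library. TMM factors came from edgeR 4.0.16 and size factors from DESeq2 1.42.0, as scalings only. Gene types were matched by name to GENCODE 29. The range rule and the expressed class were tested on simulated counts, with counting error only and for rows with high counts in every library. Rows with few counts, the intermediate and silent classes and variation between cultures were not covered. Python 3.11.15 and R 4.3.3 were used.

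The column names match no label, so the columns were used as 12 HCC1954 cultures with no treatment assigned. Members and lists were chosen with earlier results of these data known. Values are named for all 40 receptors, for expressed ligands and for up to 4 leading genes of each other list; other list members (NRP1, FGFRL1, FAP and those named at 0 or under the limit), the limit of 3 counts, the printed promoters and the set without S21 to S24 were chosen after their values were seen. No p-value was computed.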

Additional observations from a re-analysis of the deposited data

How the results depend on the processing

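No paired analysis was possible because the libraries' names give neither treatment nor replicate. The number of expressed receptors was 20. It was 22 at a minimum of 0.5 CPM (with KDR and NTRK2), 18 at 2 CPM (without FGFR3 and MERTK), 24 when 3 libraries were enough, 18 at 1 TPM (without FGFR1 and MERTK), 21 with TMM scaling (with NTRK2), and 20 to 21 with each library left out in turn. The number of silent receptors was 4, 6 with TMM scaling, 4 to 6 with each library left out, and 12 at the added limit of 3 counts. The intermediate number ran from 14 to 16 with each library left out. The number with at least a 2-fold range was 11. It was 12 with TMM scaling (41.3% of expressed rows) or DESeq2 size factors (40.9%), which add MET and NTRK2 and lose EPHB6, 18 at 1.5-fold (75.3% of expressed rows), 29 with no filter and 1 count added, 8 from the second highest over the second lowest library (23.4% of expressed rows), and 10 to 12 with each library left out. Without S21, S22, S23 and S24, an alternative chosen after seeing the data, it was 6 (26.6% of expressed rows), with MST1R, AXL, MERTK, EPHA2 and EPHB6 lost; a range over fewer libraries can only shrink. The lowest and highest library were the same under all 3 scalings for 12 of the 20 expressed receptors. Leaving out mitochondrial genes changed no percentile, since these rows are at 0, and leaving out length moved the percentile of 11 of 20 receptors by more than its SD over libraries. Depth limits the receptors under 10 CPM most: MERTK in S23 rests on 12 counts and FGFR3 in S21 on 20.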

Other observations

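A further 11 genes listed as receptor tyrosine kinases lay outside the 40 and outside the ERBB and insulin receptor families. Whether each acts as one was not examined. Of these, 5 were expressed, beside 56.9% of protein-coding genes. They were LMTK2 at a median of 29.9 TPM, LMTK3 at 27.7, STYK1 at 8.22, ROS1 at 2.56 and EPHA10 at 1.95. ROS1, a kinase known from gene fusions in lung cancer, ranged from 2.62 CPM in S22 to 9.58 in S20. ACTA2, a smooth muscle actin in the fibroblast and mural list, ranged from 0.506 to 27.99 CPM, with its highest library in S20. Among the shared signalling and downregulation genes, chosen here after their values were seen, SPRY4, a feedback inhibitor of ERK signalling, had the widest range, 1.06 CPM in S15 to 25.1 in S22 (23.6-fold). PIK3R1, a regulatory subunit of PI3K, ran from 23.1 CPM in S22 to 245 in S20 (10.6-fold).

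Over the 1000 most variable expressed rows, the first principal component held 63.8% of the variance, with loadings of -0.09, 0.03, -0.37, -0.30, -0.03, 0.09, -0.34, -0.28, 0.46, 0.54, 0.14 and 0.16 for S13 to S24. S21 and S22 lay at one end and S15, S19, S16 and S20 at the other. The second component held 14.9%, with S18 at 0.55 and S14 at 0.37 against S23 at -0.54 and S15 at -0.30. The third held 12.4%, with S24 at 0.55 and S16 at 0.36 against S17 at -0.46 and S13 at -0.41. Since the libraries do not spread evenly, no correlation between receptors across the 12 libraries is given.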
